A study of Mus musculus with 10 samples.

Results

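Somatostatin (Sst), cortistatin (Cort) and the 5 somatostatin receptors (Sstr1 to Sstr5) were followed through single cells of the paraventricular hypothalamus (PVH) of the mouse. These 7 genes were chosen as a family by name, out of 48397 genes in the deposited count table, and not by their values, though earlier results of these data were known. The study picked cells by hand from brain slices, reverse transcribed each cell with a barcoded primer and pooled the cDNA of a plate before amplification (SMART-SCRB), so that transcripts are counted as unique molecular identifiers (UMIs). All mice belonged to a single condition: males over 7 weeks of age from a cross of Agrp-IRES-Cre with the tdTomato reporter line Ai9. The labels call the picked cells labelled neurons of this cross, whereas the study's methods use the fluorescent AGRP axons to mark the PVH; Agrp, the gene whose promoter drives Cre, had a UMI in 12 of 664 PVH cells. By the start of their names the 10 plates fall into 4 Q, 2 AL and 4 JM plates. These are treated here as technical batches, and the plate was the replicate because the sources used here do not say which animals are on which plate. Whether the plates of a prefix differ by handling or by animal cannot be told apart.

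The authors' table holds 706 cells in 15 numbered clusters, of which 12 clusters with 664 cells are PVH neurons and clusters 5, 6 and 11 with 42 cells are not. Total UMIs per cell ran from 50646 to 1078101. On the 4 Q plates the median cell had 243664 ± 40083 UMIs (SD over plates), and on the 6 AL and JM plates 88215 ± 20817. Judged from spike-in RNA, each captured molecule gave 28.0 ± 4.40 UMIs on the 4 Q plates (SD) but 6.75 ± 2.37 on the 6 others, so several UMIs can stand for 1 molecule (two-sided exact permutation of the plates, p = 0.00476 for each of these measures, the smallest that 4 plates against 6 can give). Snap25, a neuronal gene, was detected in 98.2% of PVH cells and Slc17a6, the vesicular glutamate transporter of excitatory neurons, in 80.4%. Sim1, a transcription factor of the PVH, was detected in 59.9% of PVH cells and 4.76% of the others. Slc32a1, the vesicular GABA transporter, was at 0 in PVH cells. The glial markers Aqp4, Olig2, Opalin, Pdgfra, Ctss and Aif1 were each found in at most 5 of the 664 PVH cells.

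Somatostatin is a cyclic peptide that neurons of the periventricular and paraventricular hypothalamus release, and in the pituitary it holds back the secretion of growth hormone. Cortistatin is a close relative, known from cortical interneurons, that binds the same receptors. The receptors are coupled to inhibitory G proteins, which lower cyclic AMP and open potassium channels of the GIRK family.

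The relation of both peptides is visible in the coding sequence, which is shown because the reads of the 2 genes have to be told apart. The lines below give the last 42 coding bases of each gene before the stop codon, read from the annotated mouse transcripts (GENCODE, build GRCm38), with bases identical between the genes in capitals.
Sst: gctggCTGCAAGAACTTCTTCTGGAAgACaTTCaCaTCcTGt
Cort: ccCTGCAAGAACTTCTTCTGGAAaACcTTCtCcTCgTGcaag
Over the 13 codons that align, 31 of 39 bases were identical (79.5%). Sst lies at chr16:23889573-23890958 on the minus strand and Cort at chr4:149125034-149126763 on the minus strand, both in protein-coding genes that overlap no other gene. Of the receptors, Sstr1 lies at chr12:58211772-58214444 (plus), Sstr2 at chr11:113619342-113626028 (plus), Sstr3 at chr15:78537008-78544685 (minus), Sstr4 at chr2:148395344-148396767 (plus) and Sstr5 at chr17:25489875-25497288 (minus). Sstr2 overlaps Slc39a11 on the opposite strand, and whether the counting used the strand is not given in the sources used here, so reads of the pair may not have been told apart.

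The promoter windows of Sst and Sstr2 hold the full cyclic AMP response element TGACGTCA, the element through which cyclic AMP acts on Sst. The windows below (RefSeq, build GRCm38.p6) are read along the strand of the gene, with the element in capitals.
Sst, chr16:23890875-23890902 (minus): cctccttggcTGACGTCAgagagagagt
Sstr2, chr11:113619259-113619286 (plus): caagctgccgTGACGTCAcgggcggggg
By the starts in RefSeq, from which the windows are drawn, the element began 48 bases before the start of Sst and 58 bases before that of Sstr2. The GENCODE genes given above start elsewhere: counted from them the element began 73 bases before the start of Sstr2, and 66 bases inside the gene of Sst. It is its own reverse complement, so a search of either strand finds the same sites, and 588 of 32851 promoter windows of 250 bases before to 50 bases after a start (1.79%) hold it. The single windows of Cort and Sstr4 and the 2 windows of Sstr3 did not hold these letters, and Sstr1 and Sstr5 were not in the promoter table.

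Sst was concentrated in clusters 7 and 8, which together held 175489 of the 182260 Sst UMIs in PVH cells. Each of the 77 cells of these clusters had at least 1 UMI, as did 94.0% of the other PVH cells on the Q plates. Sst is a gene that shaped the clusters, so its levels there are given as a description. In cluster 7 (35 cells) the plate mean of Sst was 14183 ± 8990 counts per 1000000 UMIs (CPM; SD, n = 8 plates with at least 3 cells). The Q plates gave 24340 (Q5), 18138 (Q6), 26492 (Q7) and 18975 CPM (Q8). The others gave 10342 (AL5), 5572 (JM5), 6737 (JM6) and 2866 CPM (JM7). The 4 Q plates all lay above the 4 others, without overlap. On the scale of log2(CPM + 1), averaged over the cells of a plate, cluster 7 was at 14.25 ± 0.38 on the 4 Q plates (SD) and at 12.42 ± 0.75 on the 4 others, a difference of 1.82 or 3.54-fold (exact two-sided permutation test, p = 0.0286, the smallest that 4 plates against 4 can give).

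Cluster 8 (42 cells) was a cluster of the Q plates, with 40 of its cells there and 2 on JM8. Its Sst level was 13739 (Q5), 7903 (Q6), 3507 (Q7) and 12463 CPM (Q8), or 9403 ± 4661 (SD, n = 4). On each of these 4 plates Sst was higher in cluster 7 than in cluster 8, by 1.52-fold to 7.56-fold. The cells of cluster 8 were also the more uneven: 7 of them, all on Q plates, had between 10.3 and 53.2 CPM of Sst, whereas the lowest cell of cluster 7 had 1952 CPM. These 7 cells held 2 to 15 Sst UMIs. Those with 2 UMIs on Q5, 2 on Q8 and 6 on Q7 lay within the background of near-empty wells given below. Those with 3 and 4 UMIs on Q8 and 10 on Q7 lay within the range of the wells with more RNA, also given below. Slc17a6 was found in 88.6% of the cells of cluster 7 and 66.7% of those of cluster 8. Among the genes of GABA neurons, Gad1 and Slc32a1 were at 0 in both clusters, and Gad2 was found in 5 cells of cluster 8 (11.9%), against 14.01% of all PVH cells. Sim1 was found in 48.6% of the cells of cluster 7 and 33.3% of those of cluster 8, or 40.3% of the cells of both together.

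**Figure D1:**
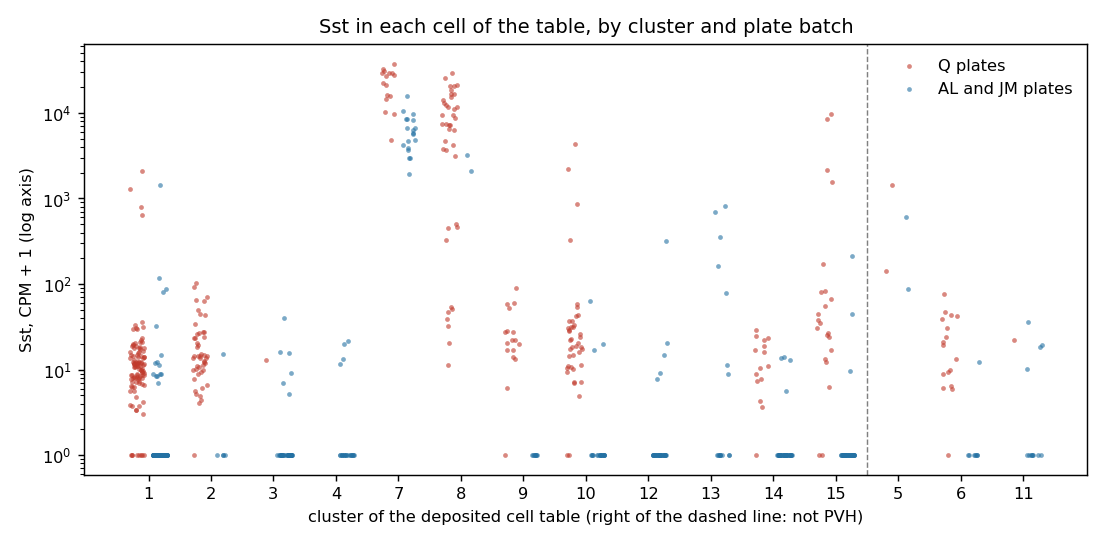
Sst in each cell, as CPM + 1 on a log axis, by cluster of the deposited table, with cells of Q plates in red and of AL and JM plates in blue; points on the baseline have no Sst UMI. Cluster 7 lies at 1952 CPM and above, cluster 8 spreads down to 10.3 CPM, and single cells above 100 CPM stand in clusters 1, 2, 10, 12, 13 and 15 and, outside the PVH, in cluster 5.

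Outside these clusters the order of the Sst plate means was cluster 15 with 445.5 ± 1014 CPM (SD, n = 8), cluster 10 with 169.7 ± 318.1 (SD, n = 7), cluster 13 with 82.4 ± 140.4 (SD, n = 3) and cluster 1 with 33.3 ± 39.4 (SD, n = 10). Clusters 9, 2, 12, 14, 4 and 3 followed, from 23.3 down to 3.58 CPM. This order mixes the batches. Cluster 9 ran from 26.6 to 39.7 CPM on Q5 to Q7, cluster 2 from 7.81 to 38.8 CPM on Q5 to Q8, and both were at 0 on JM8. Clusters 4, 12 and 13 had no cell on the Q plates. The SD was about as large as the mean or larger in clusters 15, 10, 13, 1, 12, 14, 4 and 3, so that neighbours in this order do not differ beyond their spread. The high means of clusters 15 and 10 came from few cells. Among the 587 PVH cells outside clusters 7 and 8, 22 had at least 100 CPM of Sst, a cut chosen after the values were seen: 6 each in clusters 1 and 15, 4 each in clusters 10 and 13, and 1 each in clusters 2 and 12. The highest were a pair of cells of cluster 15 on plate Q5 with 9660 and 8475 CPM, which lies within the range of cluster 7. Of these 22 cells, 8 had a UMI of a receptor, and Sstr2 was the receptor found most often, in 6 cells. Among all 587 cells a receptor was found in 39.9% and Sstr2 in 27.1%, so these counts do not set the 22 cells apart. The oxytocin (Oxt) cells of cluster 1, whose median Oxt level was 77928 CPM, included a cell with 2066 CPM of Sst on Q6 and a cell with 1427 CPM on JM6.

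Low Sst counts were spread over the cells of the Q plates. A UMI of Sst was found in 94.0% ± 2.80 of PVH cells outside clusters 7 and 8 on the Q plates (SD, n = 4; 94.6%, 90%, 96.5% and 95% on Q5 to Q8). On the AL and JM plates it was found in 14.7% ± 9.11 of these cells (SD, n = 6), with 22.2% on AL5, 2.90% on AL6, 25% on JM5, 20.8% on JM6, 7.69% on JM7 and 9.52% on JM8. The groups of plates did not overlap, and the difference was 79.3 percentage points (exact two-sided permutation test, p = 0.00476, adjusted p = 0.0167 over the 7 genes). No gene outside these 7 was compared between the batches, so how many genes separate them in this way was not tested. The median of these cells was 3, 3, 7 and 3 UMIs on Q5 to Q8 and 0 on each of the other plates.

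Near-empty wells gave the background of the assay. In plate columns from which no cell entered the table, 41 wells held under 1000 UMIs in all, a cut chosen after the values were seen. On the Q plates 12 of 16 such wells had Sst, with up to 2, 2, 9 and 2 UMIs on Q5 to Q8, while on the AL and JM plates 1 of 25 had it, with 1 UMI. In the same columns, all 16 wells of the Q plates that did hold more RNA had Sst, at 1 to 11 UMIs with a median of 4.5. Of the 251 PVH cells outside clusters 7 and 8 on the Q plates, 120 (47.8%) had no more Sst UMIs than the highest near-empty well of their plate. Counting only cells above that well, the share was 51.3% on the Q plates and 12.6% on the others (exact permutation test, p = 0.00476). With a limit of 100 CPM it was 5.51% ± 1.60 over the 4 Q plates (SD) and 2.84% over the 6 others, which did not differ beyond the spread of the plates (exact permutation test, p = 0.219, adjusted p = 0.511). A Sst UMI in a cell of a Q plate is therefore read as the level of the background, not as expression, up to the highest near-empty well. The wells with more RNA reached 6, 8, 11 and 7 UMIs on Q5 to Q8. A count above the near-empty wells is thus not by itself read as expression. Thinning each cell to 63046 UMIs left the shares at 61.5% and 12.8%; it left out 71 shallower cells, 1 of them from a Q plate.

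Beside these values stands the Sst of the plates themselves. Clusters 7 and 8 supplied 91.1% to 98.2% of the Sst UMIs in the cells of each Q plate. All the Q plates held 8 to 20 cells of these clusters, and AL6, the plate with the fewest Sst UMIs elsewhere (2 UMIs in 69 cells), held none. The other AL and JM plates held 3 to 6 such cells, which supplied 87.95% to 99.59% of the Sst UMIs in the cells of each. Among the other PVH cells of those plates 7.69% to 25% had Sst. The mean Sst level outside clusters 7 and 8 was 4.03 ± 0.52 on the log2(CPM + 1) scale over the 4 Q plates (SD), compared with 0.72 ± 0.47 over the 6 others (exact two-sided permutation test, p = 0.00476). With a pseudocount of 10 in place of 1 the difference fell from 3.31 to 1.25. The number of Sst-rich cells, the UMIs per captured molecule and the total UMIs were all higher on the Q plates, and their part in the difference was not tested.

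**Figure D2:**
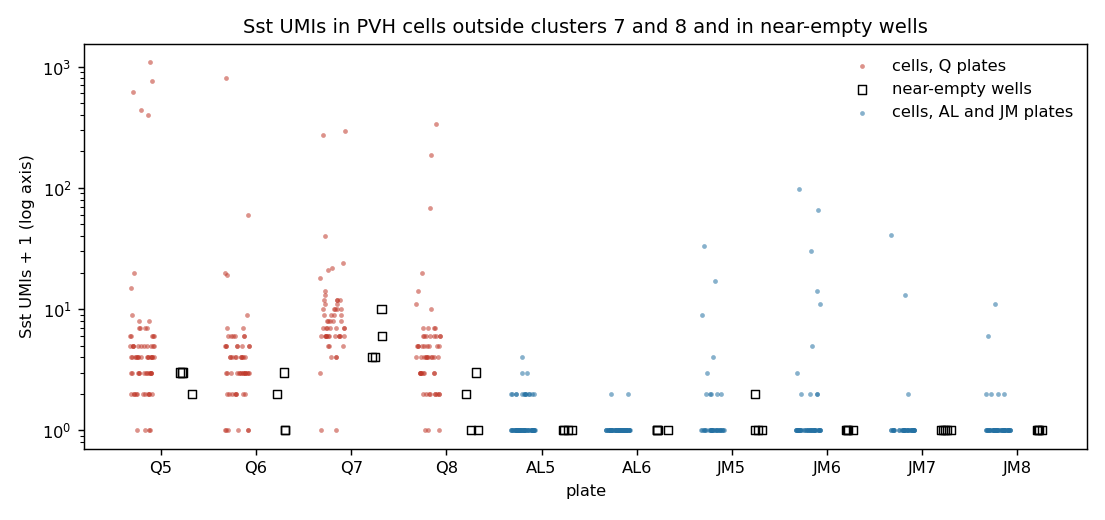
Sst UMIs + 1 on a log axis for PVH cells outside clusters 7 and 8 (dots) and for near-empty wells (open squares), by plate. On the Q plates the near-empty wells reach 9 UMIs, and 47.8% of the cells lie at or below the highest such well of their plate; on each AL and JM plate the median cell has 0.

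Cort was not found in any of the 706 cells, and this count of 0 leaves room for a share of at most 0.425%, which 3 cells would give, or 0.521% by the exact 95% interval. The limits and intervals here cover counting error only, and they concern cells with a UMI, not cells that express the gene. Outside the table, 2 wells of JM8 held 1 Cort UMI each.

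Sstr2, the most widely detected receptor, had a UMI in 167 of 664 PVH cells (25.2%, exact Clopper-Pearson 95% interval 21.9 to 28.6%). It was most frequent in cluster 10, where Crh (corticotropin-releasing hormone) had its highest median level of 1317 CPM: 36 of 62 cells had it (58.1%, 44.9 to 70.5%). Cluster 12 followed with 16 of 35 cells (45.7%, 28.8 to 63.4%) and cluster 1 with 84 of 221 cells (38.0%, 31.6 to 44.8%), both of them Oxt clusters. Cluster 12 had cells on AL and JM plates alone. On those plates cluster 1 had Sstr2 in 54 of 114 cells (47.4%), and on the Q plates in 30 of 107 cells (28.0%). Over the vasopressin (Avp) clusters 2, 3 and 4 Sstr2 was seen in 5 of 111 cells (4.50%), against 100 of 256 cells (39.1%) in the Oxt clusters 1 and 12. Cluster 2 had it in 0 of 53 cells (at most 5.66% by the limit of 3 cells, or 6.72% by the exact interval). Its median of 253588 UMIs per cell was the highest of the clusters. However, 48 of the 53 cells were on Q plates, where each captured molecule gave more UMIs, so this does not rank its cells by captured molecules. The other PVH clusters of the same 5 plates held 976 UMIs, or 12.53 CPM, and the difference did not pass (edgeR adjusted p = 0.0869), though it did with DESeq2 (adjusted p = 8.36e-05) and without a plate term (edgeR adjusted p = 0.0103).

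By level, Sstr2 in cluster 10 was 40.1 (Q5), 4.12 (Q6), 59.7 (Q7) and 19.98 CPM (Q8), against 149.2 (AL5), 136.3 (JM6) and 139.5 CPM (JM8). The Q plates lay below the AL and JM plates without overlap. The mean over these 7 plates was 78.4 ± 61.7 CPM (SD). It was 30.2 ± 14.2 in cluster 12 (SD, n = 6 plates), 17.4 ± 20.5 in cluster 4 (SD, n = 5), 17.3 ± 10.97 in cluster 1 (SD, n = 10) and 13.5 ± 20.3 in cluster 7 (SD, n = 8), and neighbours in this order overlap in their spread. In the Oxt cells of cluster 1 Sstr2 ran from 5.29 CPM on JM7 to 40.4 CPM on JM8, and it was present on all 10 plates.

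Sstr1 had a narrower distribution. It was detected in 57 of 664 PVH cells (8.58%), most of which belonged to the Trh cells of cluster 9 (10 of 25 cells, 40.0%, 21.1 to 61.3%; Trh is thyrotropin-releasing hormone, with a median level of 2268 CPM there) and to the Crh cells of cluster 10 (22 of 62 cells, 35.5%, 23.7 to 48.7%). In cluster 10 its level was 101.4 (Q5), 41.1 (Q6), 91.4 (Q7) and 18.3 CPM (Q8), and 28.4 (AL5), 91.2 (JM6) and 4.24 CPM (JM8), so that the batches overlapped. In cluster 9 it was 78.6 (Q5), 23.0 (Q6), 13.3 (Q7) and 6.55 CPM (JM8). By batch, Sstr1 was found in 9 of 17 cells of cluster 9 on the Q plates and 1 of 8 on the others. The means were 53.7 ± 40.0 CPM in cluster 10 (SD, n = 7), 30.4 ± 32.9 in cluster 9 (SD, n = 4), 7.12 ± 12.1 in cluster 14 (SD, n = 8) and 6.73 ± 7.52 in cluster 15 (SD, n = 8), and neighbours in this order overlap in their spread too. No Sstr1 UMI was found in clusters 2, 3, 4, 7, 12 and 13. In cluster 7 this was 0 of 35 cells (at most 8.57%, or 10% by the exact interval), while the other PVH clusters of the same 8 plates held 6.33 CPM. The pair did not pass the count filter.

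**Figure D3:**
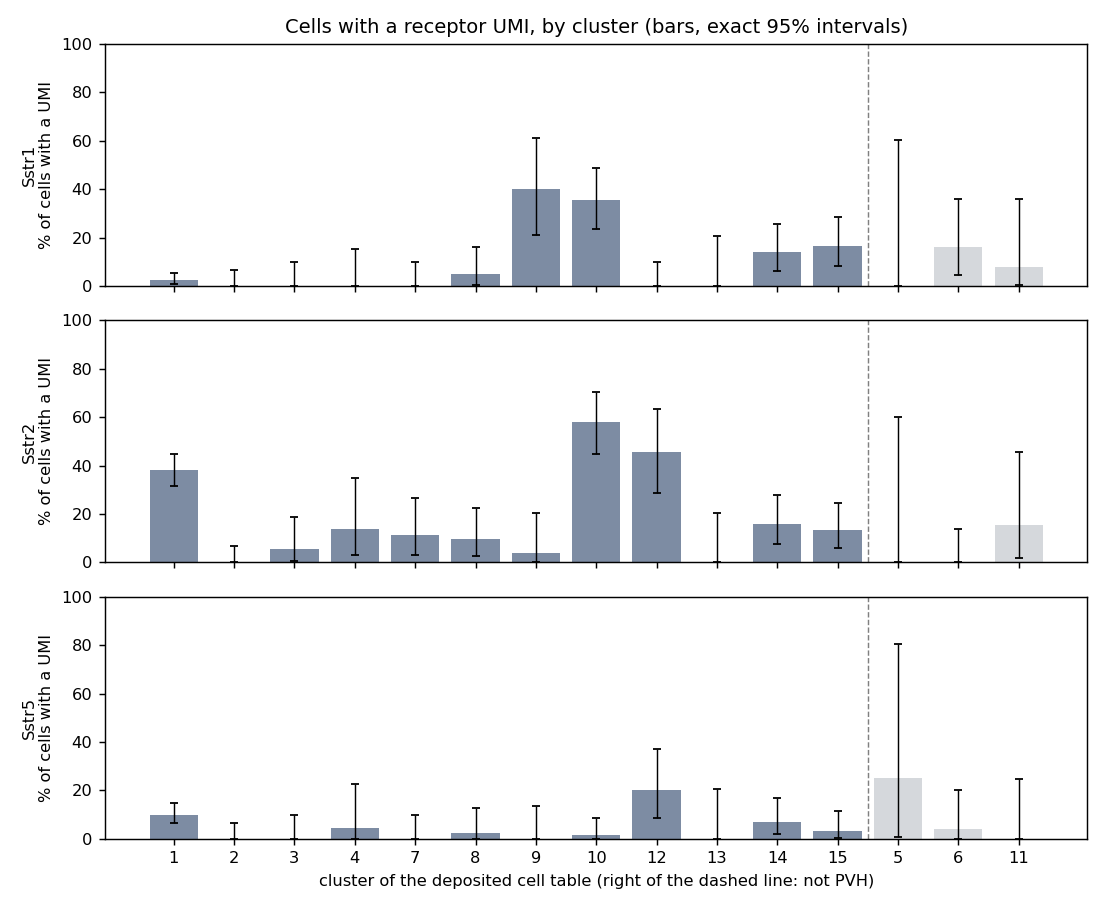
Percent of cells with a UMI of Sstr1, Sstr2 and Sstr5 (bars) in each cluster with exact 95% intervals (lines); light bars are the clusters outside the PVH. Sstr1 peaks in clusters 9 (40.0%) and 10 (35.5%), Sstr2 in clusters 10 (58.1%), 12 (45.7%) and 1 (38.0%), and Sstr5 among PVH clusters in cluster 12 (20%). The batches are pooled, and cluster 12 has no cell on the Q plates.

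Sstr5 was found mostly in the Oxt clusters. It had a UMI in 38 PVH cells (5.72%), of which 22 were in cluster 1 (9.95%) and 7 in cluster 12 (20%, 8.44 to 36.9%), so that 29 of the 38 cells were in these clusters. On the Q plates 5 of 107 cells of cluster 1 had Sstr5 and on the others 17 of 114. Sstr3 was found in 18 PVH cells (2.71%), with its highest share in cluster 12 (4 of 35 cells, 11.4%, 3.20 to 26.7%). Sstr4 was found in 2 cells, with 1 UMI each.

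**Figure D4:**
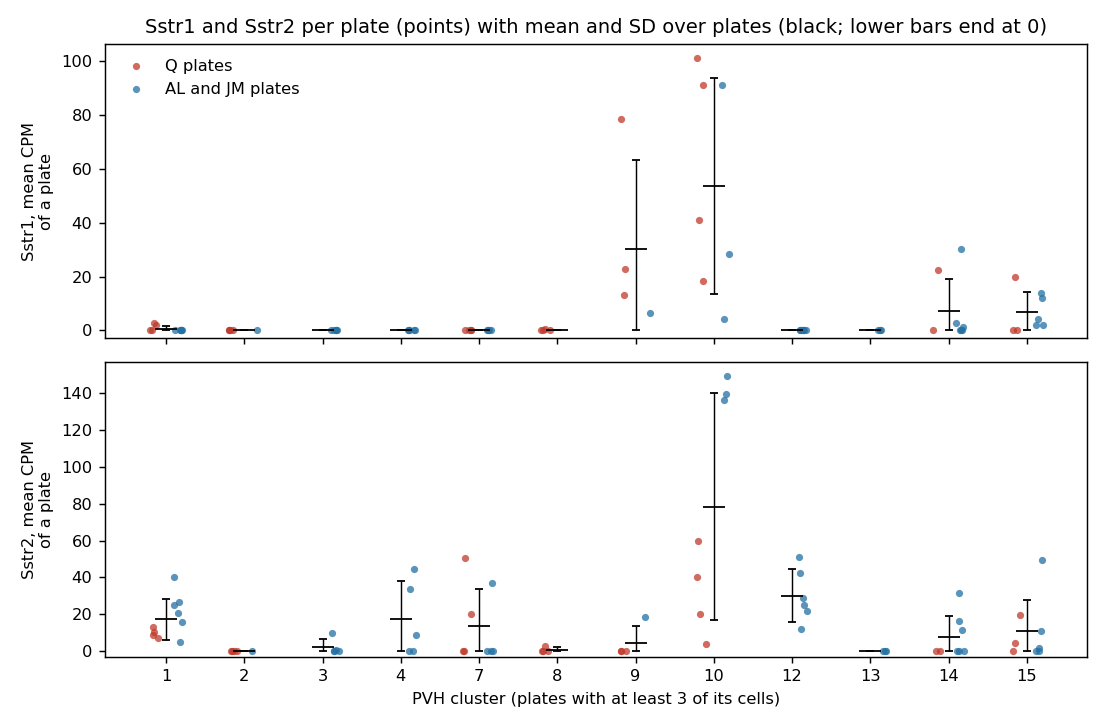
Mean CPM of Sstr1 and Sstr2 on each plate (points, coloured by batch) in each PVH cluster, with the mean and SD over plates in black. In cluster 10 the AL and JM plates lie at 136.3 to 149.2 CPM of Sstr2 and the Q plates at 4.12 to 59.7 CPM, whereas for Sstr1 the batches overlap.

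Most cells carried at most 1 receptor type: 453 of 706 cells had none, 216 had 1, 36 had 2 and 1 had 3. Sstr1 and Sstr2 were found together in 17 cells, and 13 of these were in cluster 10, where 21.0% of the cells had both. In that cluster Sstr1 was found in 35.5% and Sstr2 in 58.1% of the cells. Whether they met more often than these shares alone would give was not tested. Sstr2 and Sstr5 met in 12 cells, 7 of them in cluster 1 and 3 in cluster 12. A receptor of any kind was found in 72.6% of the cells of cluster 10, 65.7% of those of cluster 12, 47.1% of cluster 1 and 44% of cluster 9. It was found in 11 of the 77 cells of clusters 7 and 8 (14.3%), against 234 of the 587 other PVH cells (39.9%), and in none of the 16 cells of cluster 13. Shares below that of the Sst clusters were also found in the Avp clusters 2 (5.66%) and 3 (5.56%), while cluster 4 had 22.7%. These shares are over all plates, and cluster 12 had no cell on the Q plates. In the Sst clusters the receptor was mostly Sstr2, in 8 cells, with 1 to 35 UMIs. Counts of a single UMI are low enough to be missed in shallow cells, so an absent UMI is not read as absence of the receptor.

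To compare clusters over plates, the UMIs of a cluster and those of all remaining PVH clusters were added up plate by plate, and tested with edgeR's quasi-likelihood test. The clusters were drawn from the same cells, so these values describe them and are no independent evidence. Of 84 pairs of a gene and a cluster 27 passed the filter on low counts (12 for Sst, 12 for Sstr2, 3 for Sstr1), and 10 of these passed an adjusted p of 0.05, against 3.29% of all gene tests over the 12 clusters. Sst accounted for 9 of them. In cluster 7 its log2 fold change was 6.48 ± 1.11 (SE, edgeR adjusted p = 0.0163), higher in 8 of 8 plates, where 6.08% of 10032 genes passed, 1.11% higher and 4.97% lower. It was lower in clusters 1, 2, 3, 4, 9, 10, 12 and 14, each time against sums that contain the cells of clusters 7 and 8 on the same plates. AL6 held no such cell, and cluster 8 had cells on the Q plates and JM8 alone. The genes called lower made up 6.3%, 0.793%, 1.91%, 0.427%, 0.774%, 3.55%, 1.26% and 3.98% of all genes tested in these 8 clusters, in that order. In cluster 10 the lower call was lost when Q6, Q7, Q8, AL5, JM6 or JM8 was left out (edgeR adjusted p from 0.0908 to 0.114). Lower calls were also lost without a plate term in clusters 4, 10 and 12 (edgeR adjusted p = 0.0722, 0.392 and 0.0882). That in cluster 10 was lost in addition without the filter on low counts, with at least 5 cells a sum and on the Q plates alone (edgeR adjusted p = 0.0713, 0.0970 and 0.297). The call in cluster 7 was lost without plate JM6 (edgeR adjusted p = 0.0526), and with sums of at least 5 cells, which left 3 plates (adjusted p = 0.234). It was lost too within each batch, with a log2 fold change of 4.80 on the 4 Q plates (edgeR adjusted p = 0.0944) and 8.39 on 4 AL and JM plates (edgeR adjusted p = 0.199).

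Sstr1 was higher in cluster 10, by 4.00 ± 0.90 (SE, edgeR adjusted p = 0.0137), in 7 of 7 plates, where 4.46% of 10849 genes passed and 0.913% were higher. The filter on low counts admits a gene that is high in the tested cluster alone, and Sstr1 passed it in 3 of 12 clusters. The call therefore describes cluster 10 and is no independent support. Without that filter, 1 of the 12 Sstr1 tests was called higher and 2 were called lower. The pooled levels were 42.9 CPM in cluster 10 and 3.13 CPM in the other PVH clusters. With fewer plates the log2 fold change stayed at 3.88 on the 4 Q plates (edgeR adjusted p = 0.160) and 4.18 on 3 AL and JM plates (edgeR adjusted p = 0.329). Sstr2 in the same cluster had a log2 fold change of 2.42 ± 0.77 (SE, edgeR adjusted p = 0.0752), positive in 6 of 7 plates, which did not pass. It passed with DESeq2 (adjusted p = 0.000247, where 13.4% of genes passed), on the AL and JM plates alone (edgeR adjusted p = 0.00660), without a plate term (edgeR adjusted p = 0.0195) and without plate Q6 (edgeR adjusted p = 0.0228). Sstr2 passed in 0 of its 12 edgeR tests, 7 of which had an unadjusted p under 0.05, and in 5 with DESeq2, which passed 9.16% of all gene tests. Sstr1 in cluster 9 was 2.51 ± 1.42 (SE, edgeR adjusted p = 0.443), higher in 4 of 4 plates, and passed with DESeq2 (adjusted p = 0.0186).

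**Figure D5:**
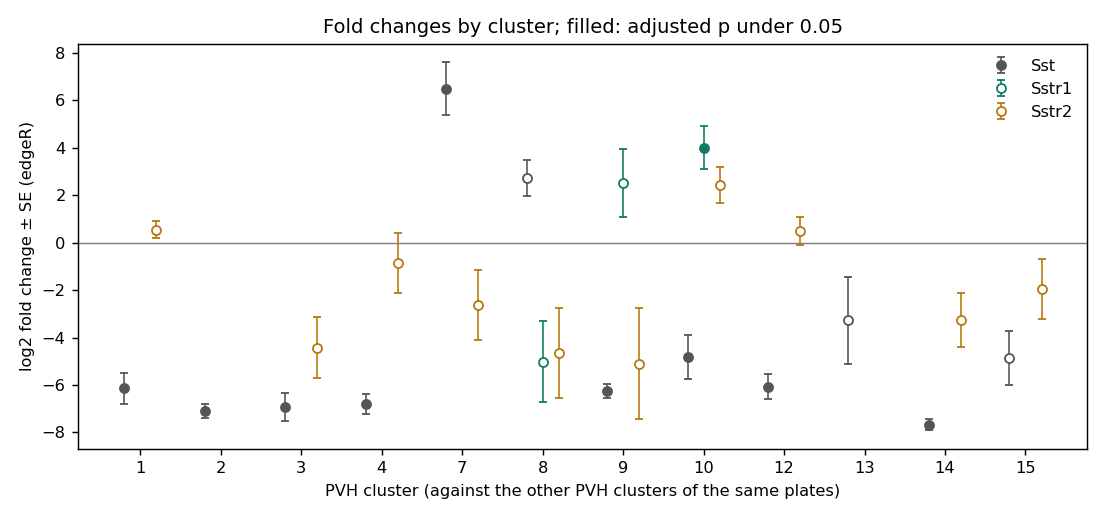
Log2 fold change ± SE (edgeR) of Sst, Sstr1 and Sstr2 in each PVH cluster against the other PVH clusters of the same plates, with filled points at an adjusted p under 0.05; genes under the count filter and clusters with 0 UMIs are left out. Sst is highest in cluster 7 (6.48) and Sstr1 in cluster 10 (4.00); the Sstr2 points are all open.

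The batches were compared for the receptors in PVH cells outside clusters 7 and 8, and no gene outside the family was compared in this way. Sstr1 was found in 13.5%, 15%, 14.04% and 11.7% of cells on Q5 to Q8, and in 5.56% (AL5), 2.90% (AL6), 7.5% (JM5), 9.43% (JM6), 5.13% (JM7) and 7.94% (JM8) on the other plates. The groups did not overlap, with means of 13.6% ± 1.40 (SD, n = 4) and 6.41% ± 2.34 (SD, n = 6; exact two-sided permutation test, p = 0.00476, adjusted p = 0.0167 over the 7 genes). After thinning the means were 12.4% and 5.23% (exact permutation test, adjusted p = 0.0167). Within cluster 1 alone they were 4.18% and 0.407% (exact permutation test, adjusted p = 0.217), and within cluster 10 Sstr1 was found in 39.0% of 41 cells on the Q plates and 28.6% of 21 cells on the others. In cluster 9 it was found in 9 of 17 cells on the Q plates and 1 of 8 on the others, and in cluster 14 in 4 of 15 and 4 of 42. Cluster 15 went the other way, with 1 of 22 cells on the Q plates and 9 of 38 on the others. No near-empty well held Sstr1.

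Sstr2 was found in 22.3% ± 5.29 of cells on the Q plates (SD, n = 4) and in 29.3% ± 8.81 on the AL and JM plates (SD, n = 6), which overlapped (exact permutation test, p = 0.214, adjusted p = 0.375). Once cells were thinned to equal UMIs the means were 15.7% and 28.8%, and the difference of 13.2 points passed (exact permutation test, p = 0.00952, adjusted p = 0.0222). Equal UMIs are not equal molecules here, as each captured molecule gave 28.0 UMIs on the Q plates and 6.75 on the others. The part of this in the difference was not tested. Within cluster 10 Sstr2 was found in 46.3% of cells on the Q plates and 81.0% on the others. Sstr5 was at 3.68% ± 2.33 over the 4 Q plates (SD) and 7.92% ± 4.52 over the 6 others (exact permutation test, p = 0.110, adjusted p = 0.256). The 2 batches hold different clusters: clusters 4, 12 and 13 had no cell on the Q plates and cluster 3 had 1. The part of this in the shares was not tested beyond the values given within single clusters.

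The genes around the family were read from lists of the pathway in cluster 7, where the median log2 fold change over all 10032 genes tested was -0.62. The lists were chosen with earlier results of these data known, and the clusters were drawn from the same cells. Counts of list genes that passed are therefore a description and no independent evidence. Of the growth hormone axis, 5 of 7 genes were tested and 3 rose, against 1.11% of all genes called higher in this cluster. Ghr, the growth hormone receptor, was at 206.6 ± 76.2 CPM in cluster 7 and 43.9 ± 14.3 in the other PVH clusters (SD, n = 8), with a log2 fold change of 2.13 ± 0.32 (SE, edgeR adjusted p = 0.000175). Stat5a and Stat5b, transcription factors that the growth hormone receptor activates, were higher by 3.62 ± 0.72 (SE, edgeR adjusted p = 0.00357) and 1.74 ± 0.36 (SE, edgeR adjusted p = 0.00428). All 3 were higher in 8 of 8 plates. On the 4 Q plates alone none of them passed (log2 fold changes of 1.578, 2.492 and 1.502, edgeR adjusted p = 0.0823, 0.334 and 0.167 for Ghr, Stat5a and Stat5b), and on the 4 AL and JM plates all did. In cluster 8 they were higher in 4 of 4 plates without passing, with pooled levels of 110.2, 44.3 and 89.3 CPM against 49.6, 8.07 and 36.7 CPM in the other PVH clusters. The median over the 5 tested genes was 1.74, and Ghrh (-2.16 ± 1.25, SE) and Igf1r (-2.37 ± 1.00, SE) did not pass.

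Of the prohormone processing genes, 5 of 6 were tested, and Pcsk2, a convertase that cleaves prohormones, fell by 2.37 ± 0.69 on the log2 scale (SE, edgeR adjusted p = 0.0414), from 137.0 ± 52.2 CPM in the other PVH clusters to 28.8 ± 30.8 in cluster 7 (SD, n = 8). This call was lost without Q8, AL5, JM5, JM6 or JM7 (edgeR adjusted p from 0.0585 to 0.108), with RLE size factors (0.0534), without a plate term (0.0559) and on the Q plates alone (0.639). Pcsk1, Cpe, Pcsk1n and Scg5 did not pass, and the list had a median of -0.35. Of the 6 Gi/o and GIRK genes (Kcnj9 the single channel gene among them) and the 6 adenylyl cyclases tested none passed with edgeR (medians -0.16 and -0.05). None of the Gi/o and GIRK genes and 2 of the adenylyl cyclases (Adcy8 and Adcy9) did so with DESeq2, which passed 18.5% of all genes in this cluster. At an unadjusted p under 0.05 the edgeR counts were 0 and 2. Among the transcription factors, Otp, needed for the formation of neuroendocrine neurons of the hypothalamus, was higher by 0.95 ± 0.15 (SE, edgeR adjusted p = 0.000345) in 7 of 8 plates, a call that was lost without a plate term (edgeR adjusted p = 0.268) and on the Q plates alone (edgeR adjusted p = 0.0823). Pou3f2, a POU factor of PVH neurons, was lower in 8 of 8 plates (-1.89 ± 0.29, SE, edgeR adjusted p = 0.000195). In all, 6 of 27 tested list genes passed, 4 higher and 2 lower, against 6.08% of all genes tested in cluster 7, and with sums of at least 5 cells, which left 3 plates, 1 passed.

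The genes whose levels ran most like those of Sst over 73 sums of a plate and a PVH cluster, among 16668 genes, were Prdm8 (Pearson r = 0.82), Col12a1 (0.77), Spink8 (0.77), Arhgap6 (0.75) and Hhip (0.74). Prdm8, a transcriptional regulator of the PRDM family, was detected in 84.4% of clusters 7 and 8 against 17.0% of the other PVH cells. The genes most like Sstr1 were Gfra1, a receptor for glial cell line-derived neurotrophic factor (0.70), 2900064K03Rik (0.62) and Ebf1 (0.61). Those most like Sstr2 were Gpc5 (0.65), Tmtc3 (0.49) and Dnah9 (0.48). The sums share plates and depth, and the correlations are given as a description.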

How the data were processed

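The authors deposited raw UMI counts per gene for 960 wells of 10 plates and a table of 706 cells kept after quality control, with a cluster number for each. The submitters' processing notes name Trimmomatic 0.36, STAR 2.5.3a and the build GRCm38.p5; the counting step is not given in the sources used here. Only wells in the cell table entered comparisons, CPM was computed here from the counts, and deposited membership values were not used.

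UMIs were summed per plate and cluster (at least 3 cells per sum, clusters on at least 3 plates) and each cluster was tested against the other PVH clusters of its plates with edgeR 4.0.16 (TMM, filterByExpr, robust quasi-likelihood F test, plate as a block) in R 4.3.3, with Benjamini-Hochberg adjustment over all genes of a fit. Alternatives were DESeq2 1.42.0, RLE size factors, no filter, at least 5 cells, no block, and leaving out each plate; the Q plates alone, the AL and JM plates alone, and the limits set by near-empty wells and 100 CPM were chosen after seeing the data. Batches were compared with exact permutation tests over plates. Both were tested on simulated data. Python 3.11.15, numpy 2.4.6, pandas 2.3.3, scipy 1.17.1 and matplotlib 3.10.9 were used.

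The members, the pathway lists and the tests were chosen with earlier results of these data known. Named were all 7 members, the list genes past the threshold in cluster 7, and the genes most correlated with a member (5 for Sst, 3 for members found in at least 50 PVH cells), on log2(CPM + 1) over genes with at least 50 UMIs; other names were chosen after their values were seen. Plates stand for replicates, so p-values measure the spread between plates. All samples belong to the same condition, and proteins were not analysed here.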

Additional observations from a re-analysis of the deposited data

Results flagged for a closer look

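Wells that did not enter the cell table held UMIs of 6 of the 7 genes above the near-empty wells. Of 166 such wells outside the columns without tabulated cells, 41 had Sst, and the highest held 257 UMIs on plate AL6 (5802 CPM), a plate on which no tabulated cell belonged to clusters 7 or 8. The highest Sstr1 count was 32 UMIs on Q7 (709.2 CPM) and the highest Sstr2 count 12 UMIs on JM6 (326.9 CPM). Sstr5 reached 6 UMIs on JM6, Sstr3 2 UMIs on JM5 and Cort 1 UMI on JM8, against 0 in every near-empty well.

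Among 21 groups of plates tested for a plate far from the others, of which chance sets apart about 1 in 20, 2 were set apart, both for Sstr4: its share of cells was 1.35% on Q5 and 1.59% on JM8, each from 1 cell with 1 UMI, and 0 on the other plates. A single plate with a positive cell among plates at 0 always stands apart in this way.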

How the results depend on the processing

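Depth and the number of plates limit these results. Sstr3, Sstr4, Sstr5 and Cort did not pass the count filter in any cluster, and most calls rest on 3 to 10 plates. Leaving out 1 plate moved the count of family tests that passed from 10 to between 7 and 12, and that of the pathway lists in cluster 7 from 6 to between 5 and 6. DESeq2 passed 18 family tests and 10 list tests, the Q plates alone 4 and 1, and sums of at least 5 cells 1 list test; these last settings hold fewer plates. The Sst share differed by 76.98 to 81.4 points and the Sstr1 share by 6.44 to 7.77 points when a plate was left out, and without JM8 the adjusted p of each was 0.0556. The difference was 2.66 points for Sst and 2.87 for Sstr1 at a limit of 100 CPM, and 3.77 for Sstr1 in cluster 1 cells alone, none of which passed. For Sstr2 it was -13.18 points after thinning, which passed, though equal UMIs are not equal molecules across the batches. For Sstr3, from 0.79 points, it turned to -0.38 with at least 3 UMIs, -0.52 after thinning and -0.46 at 100 CPM, and ran from -0.86 to 1.92 over left-out plates. For Sstr4, from 0.07 points, it turned to -0.32 after thinning and ran from -0.26 to 0.34. None of these small differences passed a test. The Sst level in cluster 7 differed by 1.49 to 2.10 on the log2 scale when a plate was left out; the p without Q5, Q6 or Q7 was 0.0571, with 3 plates against 4. Sst in cluster 15 passed as lower without Q5 (edgeR adjusted p = 0.0451) and in cluster 13 without AL6 (edgeR adjusted p = 2.89e-12, 2 plates). The cause of the other changes was not tested. No paired analysis between samples was possible because all of them form a single group; clusters were compared within plates.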

Other observations

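Outside the PVH clusters, the 4 cells of cluster 5 each had Sst, at 86.8 to 1453 CPM with a median of 376.8, and each had Gad2, the enzyme that makes GABA. On the Q plates 2 of them held 142.8 and 1453 CPM, and on the other plates 2 held 86.8 and 610.8 CPM. In cluster 6, whose cells had Gad2 in 96% and no Slc17a6, Sstr1 was found in 4 of 25 cells (16%, exact 95% interval 4.54 to 36.1%) and Sstr2 in 0 (at most 12%, the share that 3 cells would give, or 13.7% by the exact interval). In cluster 11, where Slc17a6 had its highest median level of 1034 CPM, Sstr2 was found in 2 of 13 cells (15.4%).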
